A study of Arabidopsis thaliana with 3 samples.

Results

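The activating auxin response factors of Arabidopsis thaliana are the 5 genes ARF5, ARF6, ARF7, ARF8 and ARF19, chosen by name and locus, with no measured value in the rule, out of 32678 loci with a count in each library. All 5 loci were found in the count tables. They belong to a family of 22 ARF genes, of which the other 17 serve here as the comparison. The data are RNA-seq counts from 1 group of 3 libraries of dissected inflorescence meristems of untreated Col-0, the common laboratory wild type. Plants stood 4 weeks under 8 h of light a day and 2 weeks under 16 h. Each library came from a pool of 10 inflorescences, trimmed of flower buds as far as stage P5, so young flower primordia remained on the tissue. The series holds no second genotype or treatment, so genes are compared with each other within libraries and no condition is compared with another.

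ARF proteins bind auxin response elements in DNA. While auxin is low, Aux/IAA proteins hold the activating ARFs in check by recruiting TOPLESS corepressors, and auxin leads the TIR1/AFB receptors to mark Aux/IAA proteins for breakdown. The activating or class A members carry a glutamine-rich middle region and turn target genes on, whereas most other ARFs are regarded as repressors. ARF5, also called MONOPTEROS and listed in the reference as MP, is needed for flower initiation at the inflorescence flank and for vascular and embryo patterning. ARF6 and ARF8 act together in stamen elongation and flower maturation and are targets of the microRNA miR167. ARF7, listed as NPH4, and ARF19 act together in lateral root formation, and ARF7 also in phototropism.

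The microRNA site separates ARF6 and ARF8 from the other members at the sequence level, and the mature miR167 sequences are shown for that reason. They were read from the reference genome TAIR10.1 with the RefSeq annotation, 5′ to 3′ in DNA letters, with bases 2 to 8, the seed, in capitals. The a and b forms are identical, the d form shares their seed, and the c form has a seed shifted by a base.
miR167a-5p and miR167b: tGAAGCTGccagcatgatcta
miR167d: tGAAGCTGccagcatgatctgg
miR167c-5p: tAAGCTGCcagcatgatcttg
They lie at chr3:8108090-8108110 (a, plus strand), chr3:23406177-23406197 (b, plus), chr1:11137556-11137577 (d, plus) and chr3:1306750-1306770 (c, minus). The best complementary stretch to miR167a-5p in each transcript was then searched in all 22 ARF genes. The stretches in ARF8 and ARF6 are printed below as they stand in the mRNA, with the bases that do not pair with the microRNA in capitals.
ARF8 site: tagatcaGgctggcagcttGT
ARF6 site: GagatcaGgctggcagcttGT
The ARF8 site (chr5:14633841-14633861, plus strand, TAIR10.1) lies in exon 13 of 14 and in coding sequence, with 3 unpaired bases of 21. The ARF6 site (chr1:10686478-10686498, minus strand) lies in exon 14 of 15, also in coding sequence, with 4 unpaired bases. In ARF5, ARF7 and ARF19 the best stretch left 8, 7 and 7 bases unpaired, and no ARF outside class A had fewer than 7. Among 26712 nuclear protein-coding genes, 1 gene (0.00374%) had a stretch with at most 3 unpaired bases and 7 genes (0.0262%) had one with at most 4. A match of letters is a description and does not show that the microRNA acts on these transcripts in this tissue.

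The glutamine-rich middle region can also be seen in the coding sequences, and the longest unbroken runs of the glutamine codons CAG and CAA are shown for the 4 members with a run of more than 2 codons. CAG codons are in capitals and CAA codons in lower case.
ARF19 run: caacaacaacaacaacaacaacaacaacaa
ARF6 run: CAGCAGCAGCAGCAGCAGcaaCAG
ARF7 run: caacaaCAGcaacaacaacaaCAG
ARF8 run: CAGCAGcaaCAGCAGcaacaa
The ARF19 run (chr1:6630319-6630348, minus strand, TAIR10.1) is 10 CAA codons with no CAG. The ARF6 run (chr1:10687587-10687610, minus strand) holds 7 CAG codons and 1 CAA, and the ARF7 run of the same 8 codons in length (chr5:7018774-7018797, minus strand) holds 2 CAG and 6 CAA. The ARF8 run (chr5:14632953-14632973, plus strand) has 4 CAG and 3 CAA codons. The longest run in ARF5 is 2 codons, as in most other ARFs.

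Glutamine codons made up 15.3% of the ARF7 coding sequence, 12.5% of ARF19, 10.4% of ARF6, 8.75% of ARF8 and 6.98% of ARF5, against 2.24% to 6.12% in the other 17 ARF genes and a median of 3.17% over 26712 genes. They were concentrated in the middle. With each coding sequence divided into 3 equal parts, the middle part of ARF7 had 33.0% glutamine codons, that of ARF19 26.8%, of ARF6 21.5%, of ARF8 14.4% and of ARF5 8.64%, while the highest middle part among the other 17 genes, that of ARF18, had 5.97%. The first parts of the 5 members held 4.38% to 5.56%, within the range of the other ARF genes. The class is defined partly by this region, so these values are a description. ARF5 stood lowest of the 5 over the whole sequence and in its middle part, but not in its first part.

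**Figure D1:**
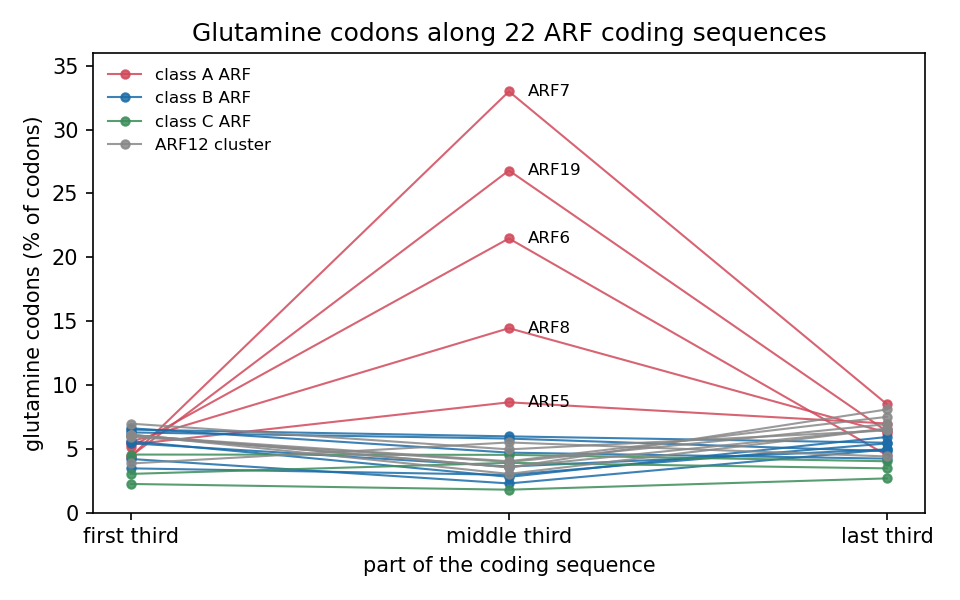
Share of glutamine codons (y axis, percent of codons) in the first, middle and last part of the coding sequence (x axis) for 22 ARF genes, 1 line a gene, coloured by class. The 5 class A genes peak in the middle, from 8.64% in ARF5 to 33.0% in ARF7, above every other ARF gene there.

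The transcripts of the members hold no long stretch in common with other genes. Of the 3615 to 4528 windows of 100 bases (the read length) in the transcripts of each member, 0 occurred elsewhere in the genome. The longest exact stretch that 2 members share is 26 bases, between ARF7 and ARF19, which are also the most alike in coding sequence at 71.8% identity over aligned bases. ARF6 and ARF8 follow at 68.7%, and the other 8 pairs lie between 60.3% and 66.0%. Overlapping neighbours bear on ARF7 above all. Its last 254 bases overlap CPN20, a chloroplast chaperonin gene on the opposite strand, which had 9737, 9263 and 8707 counts in replicates 1, 2 and 3, against 1620, 1581 and 1645 for ARF7. The library kit keeps strand, but the strand setting of the counting is not given in the sources used here, so how reads of this overlap were counted is uncertain. ARF5 overlaps AT1G19860 by 23 bases on the opposite strand and ARF19 overlaps AT1G19210 by 6 bases on the same strand. No gene of the reference overlaps ARF6 or ARF8.

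The tissue label was checked against marker genes, and the libraries differed in some of them. Total counts were 29094404, 28948463 and 27254114, of which nuclear genes held 29078107, 28933042 and 27236559. CPM stands for nuclear counts scaled in each library to the same total. Of 5 inflorescence and floral meristem markers, STM, WUS, LFY and AP1 had at least 1 CPM in all 3 libraries. So did 63.2% of all nuclear protein-coding genes. The stem cell marker CLV3 had 20, 26 and 30 counts, or 0.688, 0.899 and 1.10 CPM, below 1 CPM in replicates 1 and 2. Of 3 root markers 0 reached 1 CPM in all 3 libraries, and PLT1 was listed at 0. The summed level of 6 tapetum markers, genes of older anthers, was 158, 17.1 and 12.1 CPM in replicates 1, 2 and 3. Of these, 1 reached 1 CPM in each library, DYT1 was at 0 in replicates 2 and 3, and MYB80 was at 0 in replicate 3. The summed level of 6 early-response genes, which react to touch and wounding and all passed that threshold, was 1256, 592 and 210.0 CPM. Replicate 1 was thus far above the others in tapetum markers, while the early-response genes differed between all 3 libraries. Their part in the spread of the ARF genes was not tested.

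All 5 members were expressed, taken as at least 1 CPM in each library, as were 63.2% of nuclear protein-coding genes. To compare genes of different length, CPM was divided by exon length, with overlapping exons of a gene merged, and rescaled to the same sum in each library. This is called the TPM-like level here. On this scale the members fell into a high group of ARF6 and ARF5, an intermediate ARF8, and a low pair of ARF7 and ARF19. Since whole pools were sequenced, fewer cells expressing a gene and less RNA per cell cannot be told apart.

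ARF6 (AT1G30330, chromosome 1, 10685822 to 10690988, minus strand) had 11614, 14006 and 11936 counts in replicates 1, 2 and 3, which are 399, 484 and 438 CPM. Its TPM-like level was 160.0, 196 and 178 in these libraries, highest in replicate 2. The mean was 178 ± 17.8 (SD, n = 3). ARF6 exceeded 96.0%, 96.9% and 96.6% of nuclear protein-coding genes in these libraries, on average 96.5%. For the other members, the share of genes exceeded is likewise an average over the libraries.

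ARF5 (AT1G19850, chromosome 1, 6886669 to 6891404, plus strand) had 9766, 10839 and 11681 counts, or 336, 375 and 429 CPM. Its TPM-like level was 151, 170.1 and 196, with a mean of 173 ± 22.6 (SD, n = 3), above 96.3% of genes. Replicate 3 was highest and replicate 1 lowest, the reverse of the order of the early-response genes, whose part in this was not tested. ARF6 was above ARF5 in replicates 1 and 2 and below it in replicate 3, so the ranges of the top 2 members overlap.

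ARF8 (AT5G37020, chromosome 5, 14629453 to 14634454, plus strand) had 4670, 6471 and 4637 counts, or 161, 224 and 170.2 CPM. At a TPM-like level of 72.8, 102 and 78.4, with a mean of 84.5 ± 15.6 (SD, n = 3), it was above 91.1% of genes. Like ARF6, it was highest in replicate 2, and a likeness between these genes was not tested. Its range does not overlap those of ARF6 and ARF5 above it or of ARF7 below it.

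ARF7 (AT5G20730, chromosome 5, 7016445 to 7022179, minus strand) stood at 55.7, 54.6 and 60.4 CPM. Its TPM-like level of 20.5, 20.2 and 22.5, on average 21.1 ± 1.27 (SD, n = 3), exceeded 64.0% of genes. ARF19 (AT1G19220, chromosome 1, 6627683 to 6633133, minus strand) was the lowest member, with 937, 888 and 845 counts or 32.2, 30.7 and 31.0 CPM. Its TPM-like level was 12.1, 11.6 and 11.9, with a mean of 11.9 ± 0.238 (SD, n = 3), above 53.2% of genes. The 2 lateral root factors were thus near the middle of all genes, and the median TPM-like level of expressed genes was 25.6. Both were even across the libraries, and their ranges do not overlap.

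**Figure D2:**
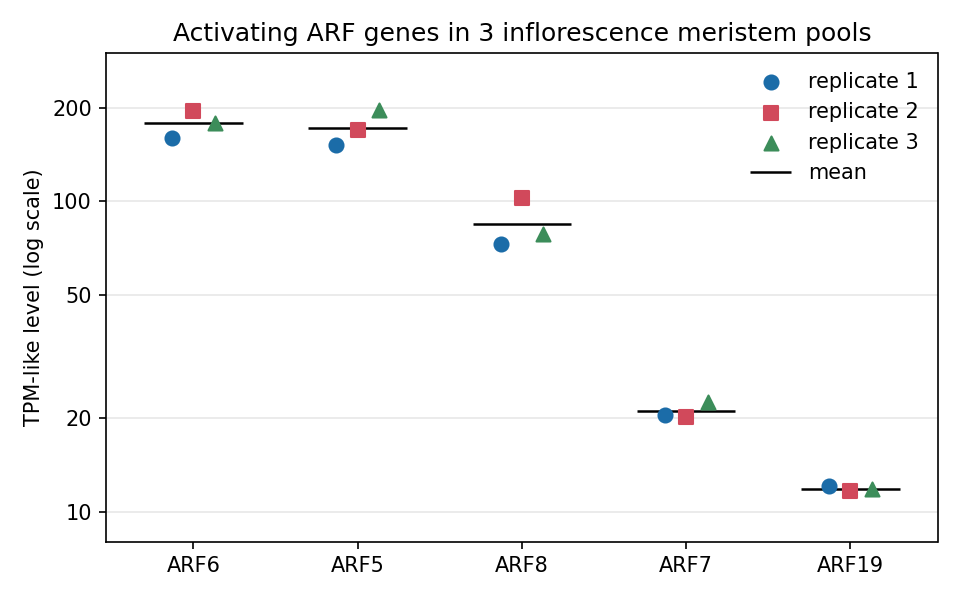
TPM-like level (y axis, log scale) of the 5 activating ARF genes (x axis, in order of their mean) in each of 3 libraries, with the mean as a bar. ARF6 and ARF5 overlap near 178 and 173, ARF8 follows at 84.5, and ARF7 and ARF19 lie at 21.1 and 11.9.

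Within the class, ARF6 took 38.0% ± 1.30 of the summed TPM-like level of the 5 members, ARF5 36.9% ± 3.15, ARF8 18.0% ± 2.23, ARF7 4.53% ± 0.439 and ARF19 2.56% ± 0.309 (SD, n = 3 each). The miR167-matched pair ARF6 and ARF8 held 55.9%, 59.6% and 52.7% in replicates 1, 2 and 3. ARF7 and ARF19 together held 7.82%, 6.38% and 7.06%. ARF5, ARF6 and ARF8 made up the other 92.9% ± 0.721.

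The order was tested by the log2 ratio of TPM-like levels within each library, which cancels library size. For each member, every other gene kept by the filter on low counts was set against it (limma, two-sided, Benjamini-Hochberg adjustment over 18314 genes). Of the 10 pairs of members, 9 differed and kept their direction in 3 of 3 libraries. Such calls are common, since 97.2% of all genes differed from ARF6, 96.0% from ARF5, 89.9% from ARF8, 86.3% from ARF7 and 90.3% from ARF19. The pair that did not differ was ARF6 over ARF5, with log2 ratios of 0.081, 0.20 and -0.14 and a mean of 0.048 (95% interval -0.37 to 0.47, limma, adjusted p = 0.826). The interval includes 0, and the mean turned to -0.028 without replicate 2.

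The next step down led to ARF8, which ARF6 exceeded 2.12-fold and ARF5 2.05-fold. ARF6 over ARF8 gave log2 ratios of 1.14, 0.94 and 1.19, on average 1.09 ± 0.13 (SD, n = 3, limma, adjusted p = 1.1e-06). ARF5 over ARF8 gave 1.06, 0.73 and 1.32, on average 1.04 ± 0.29 (SD, n = 3, limma, adjusted p = 3.1e-06). Both ratios were smallest in replicate 2, where ARF8 peaked. The largest step between neighbours came after ARF8, which exceeded ARF7 by 1.99 ± 0.30 log2 units (SD, n = 3, limma, adjusted p = 8.2e-05), a fold of 3.97. Of the lateral root pair, ARF7 exceeded ARF19 by 0.75, 0.80 and 0.93, on average 0.83 ± 0.089 (SD, n = 3, limma, adjusted p = 0.000357). The extremes, ARF6 and ARF19, differed by 3.90 ± 0.17 log2 units (SD, n = 3, limma, adjusted p = 1.0e-05), or 14.9-fold. The limma p-values depend on which member is subtracted, because all genes of a fit share its deviations. For ARF5 over ARF7 the adjusted p was 8.1e-06 with ARF7 subtracted and 2.5e-44 with ARF5 subtracted (limma). Variance is also shared between genes in limma, so a p-value does not rest on the SD of its own pair alone. An exact sign-flip test over 3 libraries cannot give a p below 0.25.

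**Figure D3:**
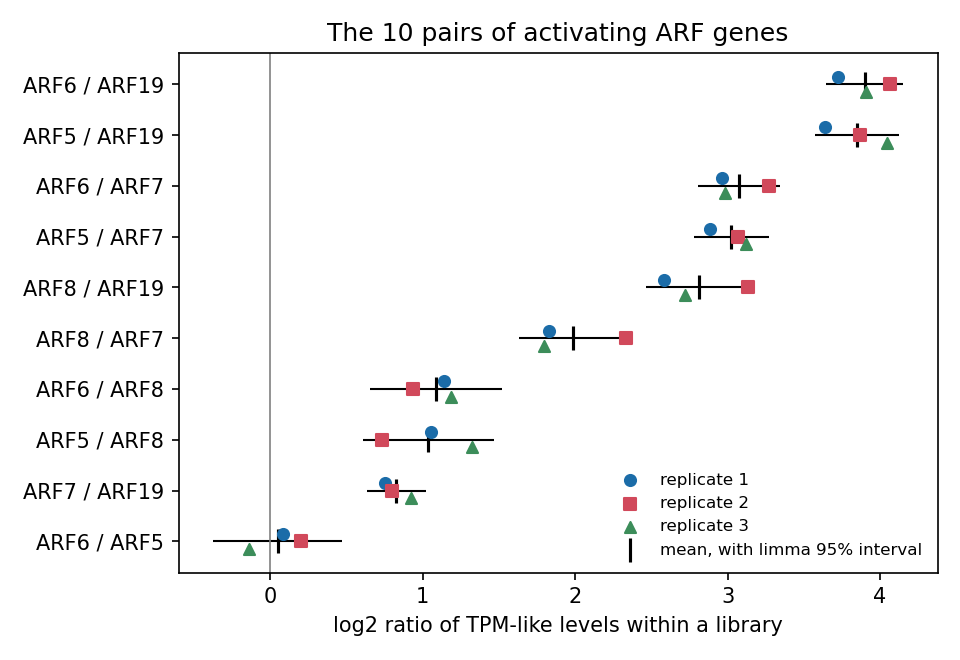
Log2 ratio of TPM-like levels within a library (x axis) for the 10 pairs of activating ARF genes (y axis), with 1 point per replicate, the mean as a tick and limma's 95% interval as a line. ARF6 over ARF5, with a mean of 0.048, is the pair whose points fall on both sides of 0.

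The spread between pools is given for each member, and the spreads were not tested against each other. The coefficient of variation (CV) of CPM was 18.4% for ARF8, 12.3% for ARF5, 9.62% for ARF6, 5.38% for ARF7 and 2.57% for ARF19. Counting alone would give 1.38% for ARF8, 0.964% for ARF5, 0.894% for ARF6, 2.49% for ARF7 and 3.35% for ARF19, so the spread of ARF19 was no larger than counting error. Against the variation usual for genes of their level, 0 of the 5 members stood out (edgeR goodness of fit to the dispersion trend, 462 of 18334 genes or 2.52% called). The lowest unadjusted p was that of ARF8 at 0.269 (edgeR, adjusted p = 1.0 for each member), 0 members were below an unadjusted p of 0.05, and the same counts of 0 were found with DESeq2's dispersion trend. The trend at the level of ARF8 corresponds to a CV between pools of 14.3%. In a model with counting error alone, 4 members, all but ARF19, varied, as did 61.0% of genes.

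**Figure D4:**
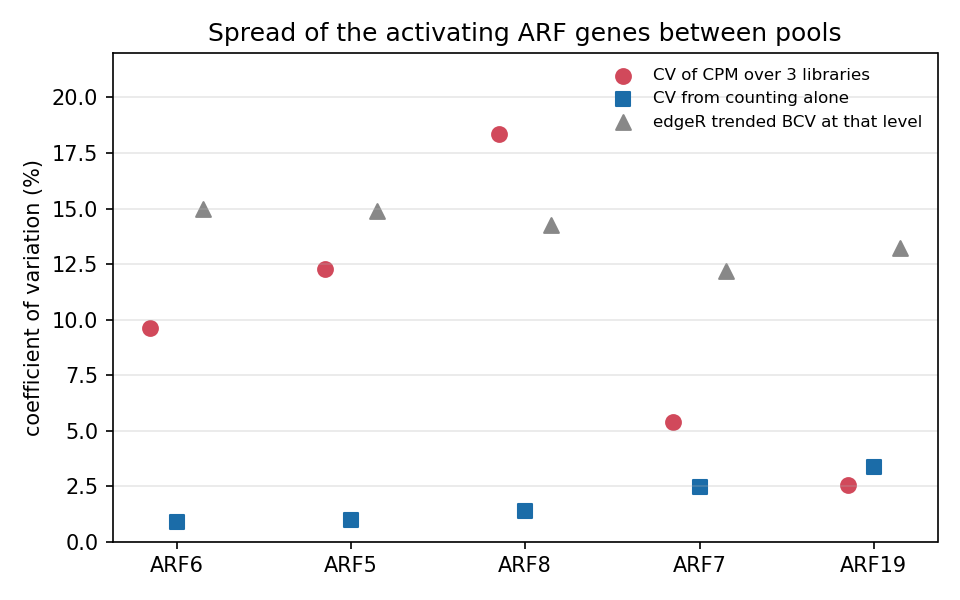
Coefficient of variation (y axis, percent) of the 5 activating ARF genes (x axis), showing the value over 3 libraries, the value from counting alone and edgeR's trended biological coefficient of variation (BCV). ARF8 at 18.4% lies above its trend of 14.3%, and ARF19 at 2.57% lies below its counting error of 3.35%.

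Among all 22 ARF genes, class A took 39.4%, 41.6% and 40.3% of the summed TPM-like level in replicates 1, 2 and 3. The median member stood at 84.5 in class A, against 70.0 in the 7 class B genes and 12.6 in the 3 class C genes ARF10, ARF16 and ARF17. The mean level per gene was 93.6 in class A and 92.9 in class B. In the order of the family, ARF6 ranked 2, 2 and 3 in replicates 1, 2 and 3 and ARF5 ranked 3, 3 and 2. Rank 1 belonged to ARF2, a class B repressor that acts in ageing and organ growth, at 199, 198 and 234. ARF8 ranked 6 in each library, after the class B genes ARF1 and ARF3 at 128 ± 3.83 and 110.3 ± 12.1 (SD, n = 3 each). ARF7 was below every class B gene and ARF19 lay among the class C genes. The 7 genes of the ARF12 cluster were listed at 0 in each library. These are known as near copies of one another. Whether reads shared among them went uncounted, or the genes are not expressed in this tissue, was not tested.

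**Figure D5:**
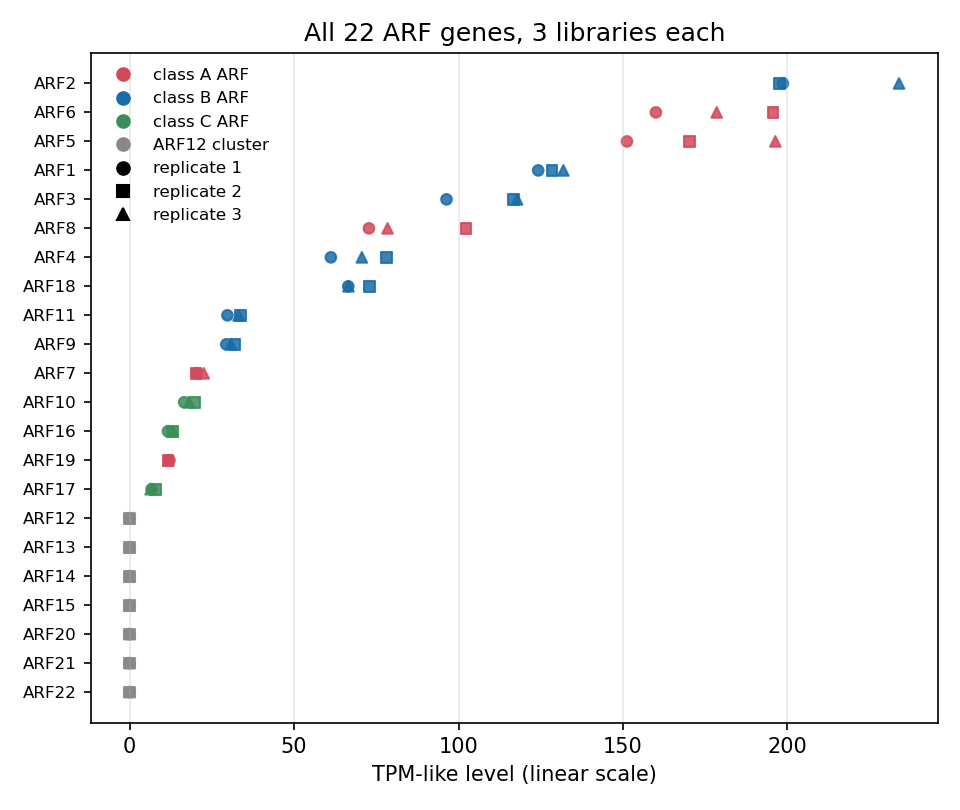
TPM-like level (x axis, linear scale) of all 22 ARF genes (y axis, in order of their mean), with 1 symbol per replicate and colour by class. ARF6 and ARF5 come directly after ARF2, and the 7 genes of the ARF12 cluster lie at 0.

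Of the partners of the activating ARFs in the auxin pathway, all receptors and corepressors and most Aux/IAA repressors were expressed. Of 29 Aux/IAA genes, 20 (69.0%) were expressed, near the 63.2% of all nuclear protein-coding genes, and their median TPM-like level was 5.28. The highest were IAA8 at 323 ± 8.07, IAA4 at 77.8 ± 6.03 (SD, n = 3 each) and IAA9 at 221, 278 and 239, while IAA6 and IAA15 were listed at 0. IAA12, also called BODENLOS and known as the partner repressor of ARF5, was named after its values were seen and stood at 42.3 ± 4.34, against 173 ± 22.6 for its partner (SD, n = 3 each). The summed level of class A was below that of the Aux/IAA genes by log2 ratios of -1.32, -1.17 and -1.09, on average -1.19 ± 0.12 (SD, n = 3). These sums set 5 genes against 29, and the mean level per gene was 93.6 in class A and 36.8 in the Aux/IAA genes. The log2 ratio of the sums was -0.16 without the length correction. All 6 TIR1/AFB receptors and all 5 TOPLESS corepressors were expressed, with medians of 78.8 and 59.0. The receptors were led by TIR1 at 155 ± 14.9, AFB5 at 114 ± 6.41 and AFB1 at 87.3 ± 13.5, and the corepressors by TPL at 119 ± 9.44, TPR2 at 74.9 ± 11.8 and TPR4 at 59.0 ± 3.61 (TPM-like, SD, n = 3 each).

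Of 16 genes reported as targets or partners of ARF5, 14 (87.5%) were expressed, where 63.2% of all nuclear protein-coding genes were. Their median TPM-like level was 44.5, against 9.64 over all nuclear protein-coding genes and 25.6 over the expressed ones. The difference was not tested. The abaxial organ gene YAB1 stood at 293 ± 54.3, the organ growth gene ANT at 182 ± 21.0, the floral regulator LFY at 106 ± 19.6 and the ANT relative AIL6 at 30.1 ± 3.55 (SD, n = 3 each). The cytokinin signalling inhibitor AHP6 stood at 17.1 ± 0.599. Of the embryo targets, TMO6 was at 86.9 ± 3.33, TMO5 at 50.2 ± 10.1 and TMO3 at 41.3 ± 3.07, whereas TMO7, a small mobile protein of the embryo, had 0, 0 and 1 counts. The vascular gene ATHB8 was at 11.3 ± 1.91. DRN, a shoot and organ founder gene, had 29, 27 and 18 counts, or 0.997, 0.933 and 0.661 CPM, below the threshold in each library. The cytokinin response regulators ARR7 and ARR15, reported as repressed by ARF5, were at 74.9 ± 19.9 and 6.35 ± 3.52. The chromatin remodellers BRM and SYD, which ARF5 is known to recruit, stood at 47.7 ± 1.63 and 40.1 ± 1.41 and were even across libraries. By the same test against the dispersion trend, 0 of the 15 that passed the filter were called as varying between pools, where 2.52% of all genes were.

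Of 5 genes reported as targets of ARF7 and ARF19, 0 reached the threshold in every library, against 63.2% of all nuclear protein-coding genes. LBD29 and LBD33, lateral organ boundary genes of lateral root formation, were listed at 0, LBD16 had 1, 1 and 0 counts and LBD18 had 10, 5 and 9. The Aux/IAA gene IAA19 had 64, 51 and 16 counts, below the threshold in replicate 3. Where a gene had no count, its level could still be as high as 3 counts, equal to 0.103, 0.104 and 0.110 CPM in replicates 1, 2 and 3. This limit covers counting error only.

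Of 9 genes reported as targets or partners of ARF6 and ARF8, 5 (55.6%) were expressed, near the 63.2% of all nuclear protein-coding genes. The other 4 had few counts or none. MYB21 and MYB24, stamen regulators, were listed at 0, DAD1, a jasmonate synthesis gene of stamens, had 2, 0 and 0 counts, and the growth gene SAUR63 had 0, 13 and 0. The jasmonate synthesis gene LOX2, which is also a leaf gene, stood at 72.5, 137 and 223 in replicates 1, 2 and 3. Of the 5 listed genes that passed the filter, 1 was called as varying beyond the trend, where 2.52% of all genes were. This was LOX2 (edgeR, adjusted p = 7.2e-05). LOX2 was lowest in replicate 1, where the early-response genes were highest, and their part in this was not tested. ARF6 and ARF8 were likewise lowest there but highest in replicate 2. The partners RGA, BZR1, BPE and PIF4 were at 89.4 ± 10.5, 45.2 ± 0.760, 14.0 ± 0.441 and 5.50 ± 1.14 (TPM-like, SD, n = 3 each).

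Loci of the miR167 precursors had few counts in these libraries, which do not measure the mature microRNA. MIR167B had 25, 15 and 18 counts, MIR167A 2, 1 and 2, MIR167D 2, 0 and 2, and MIR167C was listed at 0. None reached 1 CPM in any library. MIR167B stood at 0.860, 0.518 and 0.661 CPM, far below ARF19 at 32.2, 30.7 and 31.0 CPM. Divided by its short annotated length, this became a TPM-like level of 12.8, 7.81 and 10.03. That level rests on few counts and on the annotated length, and is not comparable with the level of ARF19. IAR3, reported as a further miR167 target, stood at 33.7, 36.2 and 43.6 (TPM-like) and was highest in replicate 3.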

How the data were processed

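Raw counts per gene were deposited by the authors, 1 whole number for each of 32678 loci in each of 3 libraries, not normalised. FastQC, Bowtie2 2.2.5, TopHat2 2.1.0, HTSeq 0.6.1 and the build TAIR10 are named, per the submitters' processing notes. Not given in the sources used here are the annotation release, the strand setting and the treatment of reads with several positions. Loci were matched to RefSeq on TAIR10.1 (31912 matched), and 279 organelle loci were left out. All 117 entries of 15 gene lists had the listed name as symbol or synonym. The members and lists were chosen with earlier results of these data known.

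CPM, on its usual scale, used nuclear totals of 27236559 to 29078107 counts. Logs for ratios used a pseudocount of 0.5 counts. filterByExpr kept 18334 genes, of which 18314 had a length. Tools were R 4.3.3, edgeR 4.0.16 (TMM, dispersion trend), limma 3.58.1 (intercept only), DESeq2 1.42.0 and Biopython 1.88. The threshold was an adjusted p of 0.05. Of the steps, the goodness of fit and the ratio fit were tried on simulated counts, drawn from the dispersion trend fitted to these data. The sequence searches and the levels were not tried in this way. Outcomes of these trials are not reported here, so the size of change that the fits can detect is not given. Genes named are the 5 members, up to 3 highest genes of each pathway list, genes listed at 0 and every listed target or partner except 1, which is not reported here. The 2 genes nearest in level to each member were also taken, and others were chosen after their values were seen. Alternatives were other scalings, lengths, filters, pseudocounts and thresholds, and leaving out each replicate. Separate growth of the pools is not stated in the labels, so p-values cover only the spread of these 3 samples, which may be technical.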

Additional observations from a re-analysis of the deposited data

How the results depend on the processing

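The 9 called pairs kept their direction and their call under 8 other settings, with adjusted p up to 0.00751 (limma). These were no length correction, coding length, a pseudocount of 5 counts, no filter, leaving out each replicate, and subtracting the other member, the last chosen after seeing the data. ARF6 over ARF5 stayed uncalled (limma, adjusted p 0.317 to 0.932), with a log2 ratio of -0.028 (without replicate 2) to 0.14 (without replicate 3) when a replicate was left out, and 0.22 without length correction. Other scalings moved no member's level by more than its SD. The 5 members stayed expressed at 0.5 CPM, 5 CPM and 10 counts. Members varying between pools numbered 0 in every setting except Poisson variation, which called 4. For sums over the class, compared after seeing the data, no length correction gave a class A share of 45.4% of all ARF levels in place of 40.4%, a log2 ratio to Aux/IAA of -0.16 and to class B of -0.19 in place of -0.48. Coding length gave -1.81 to Aux/IAA. No paired analysis was possible because the series holds 1 group. Depth limits genes with few counts, not the members, which had at least 845 counts in each library.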

Other observations

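Genes at nearly the same TPM-like level as a member in all 3 libraries were looked up among 8680 named nuclear protein-coding genes, by the root mean square difference of log2 levels. The nearest to ARF6 were the heat shock gene HSP81-2 and ANT, the organ growth gene that is also a target of ARF5, with differences of 0.032 and 0.034. ANT stood at 161, 203 and 182 against 160.0, 196 and 178 for ARF6, and both were highest in replicate 2. The nearest to ARF8 were the auxin importer gene LAX2 (0.059) and the phase change gene SPL10 (0.069), both also highest in replicate 2. LAX2 was at 73.6, 102 and 84.1, and SPL10 at 74.8, 95.1 and 80.9, against 72.8, 102 and 78.4 for ARF8. The nearest to ARF5 were ARA12 and PBB1, a proteasome subunit gene (0.073 and 0.078). Those nearest to ARF7 were HXK2 and ABCB26 (0.018 and 0.021), and to ARF19 FES1 and UBC37 (0.024 and 0.033). These genes were chosen by their likeness over the same 3 libraries, so a shared highest replicate comes with the choice and adds nothing to it. Within a difference of 0.1 there were 21 genes for ARF6, 12 for ARF5, 9 for ARF8, 85 for ARF7 and 59 for ARF19. With 3 libraries such a likeness is thus shared by many genes and is a description only.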
